A study of Mus musculus with 20 samples.

Results

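Fibrillar collagen becomes a stiff, insoluble matrix when its molecules are covalently crosslinked, and 2 enzyme families carry this out. The lysyl hydroxylases (*Plod1*, *Plod2* and *Plod3*) act inside the cell on procollagen, and the lysyl oxidases (*Lox*, *Loxl1*, *Loxl2*, *Loxl3* and *Loxl4*) act outside it on assembled collagen and elastin. These 8 genes were chosen by name as the members of both families, with earlier results of these data known. Here they are described across cultured renal myofibroblasts of WT and WWP2-/- mice. They are 8 of the 51826 genes in the count table, and all 8 were among the 20407 genes tested, which had at least 5 counts in at least 5 libraries. The lowest count of any member in any library was 295, for *Loxl4*, so none of them was kept by 1 group alone.

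Lysyl hydroxylases convert lysines of new procollagen chains to hydroxylysines in the endoplasmic reticulum. PLOD2 is known for the telopeptide lysines at the chain ends, PLOD1 for those of the helical part, and PLOD3 for its additional glycosyltransferase activity. Lysyl oxidases are copper-dependent amine oxidases that turn lysines and hydroxylysines into reactive aldehydes, from which the crosslinks form, and hydroxylated telopeptides give the more stable kind that is known from fibrotic tissue. LOX and LOXL1 are secreted as proenzymes, whereas LOXL2, LOXL3 and LOXL4 carry scavenger receptor cysteine-rich domains. TGFβ1 is a known inducer of several of these genes in fibroblasts, and WWP2 is an E3 ubiquitin ligase of the NEDD4 family.

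Poly-A RNA was sequenced from 20 libraries, 5 in each of 4 groups: WT untreated (WT), WT treated with TGFβ1 (WT+TGFβ1), WWP2-/- untreated (WWP2-/-) and WWP2-/- treated with TGFβ1 (WWP2-/-+TGFβ1). The WWP2-/- mice, marked KO in the labels, were homozygous littermates of the WT mice, both on C57BL/6J. The cells had grown out of minced kidney pieces and were used at passage 2, so they are a mixed outgrowth and not a sorted population. The labels give no dose or duration of TGFβ1, which the study's methods state, and no sex or age of the mice. The methods describe data points in general as independent experiments, from single mice or the cells of 1 mouse, but no label ties a library to a mouse or culture. The p-values measure the spread between these libraries, whatever number of mice each came from.

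Totals were between 47520759 and 73063697 counts per library. *Wwp2*, the targeted gene, was at 53.1 ± 4.14 and 53.5 ± 2.89 CPM (read counts relative to a library size scaled by edgeR's TMM method, given as mean ± SD, n = 5 libraries) in WT and WT+TGFβ1 and at 20.5 ± 1.62 and 19.0 ± 1.72 CPM in WWP2-/- and WWP2-/-+TGFβ1, with no overlap between genotypes. *Xist*, the transcript of the inactive X chromosome, was above 1 CPM in 11 of 20 libraries, of which 4 were WT, 4 WT+TGFβ1, 2 WWP2-/- and 1 WWP2-/-+TGFβ1, so genotype and the sex of the cells were unevenly mixed. Of these 11, 5 also held Y-linked transcripts above 1 CPM (3 of WT, 1 of WT+TGFβ1 and 1 of WWP2-/-). In WT replicate 1, *Xist* was at 178 CPM and the Y-linked transcripts summed to 88.4 CPM. Such a library does not read as the cells of 1 mouse, and the labels do not say whether mice were pooled. For these 5 libraries the unit of replication is therefore not known. The mesenchymal marker *Pdgfrb* was at 104 to 742 CPM in every library. *Acta2*, which encodes the smooth muscle actin that defines myofibroblasts, was at 1016 to 3430 CPM in 18 libraries but at 38.9 CPM in WWP2-/- replicate 3 and 50.4 CPM in WWP2-/-+TGFβ1 replicate 1, so the label of myofibroblast was not borne out by *Acta2* in these 2 libraries. In bulk samples, fewer cells of a type and less RNA per cell cannot be told apart.

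Levels of different genes were compared as CPM per kilobase of each gene's longest transcript, with the mean over the 20 libraries. *Lox* was the most abundant member at 577 ± 445 CPM per kilobase (SD), followed by *Loxl1* at 203 ± 90.0, *Plod2* at 166 ± 57.8, *Loxl2* at 92.4 ± 79.8, *Plod3* at 76.5 ± 12.3, *Plod1* at 23.2 ± 3.03, *Loxl3* at 18.8 ± 7.72 and *Loxl4* at 4.25 ± 2.43. *Lox* was above *Loxl1* in 19 of 20 libraries, *Plod2* above *Loxl2* in 19, *Plod3* above *Plod1* in 20 and *Loxl3* above *Loxl4* in 20. Other neighbours separated in fewer libraries on this scale, since *Loxl1* was above *Plod2* in 13 libraries, *Loxl2* above *Plod3* in 11 and *Plod1* above *Loxl3* in 15. With the length of all exons joined in place of the longest transcript, *Plod1* took place 7 and *Loxl3* place 6, and the neighbours separated differently, with *Loxl1* above *Plod2* in 20 libraries, *Plod2* above *Loxl2* in 17, *Loxl2* above *Plod3* in 17 and *Loxl3* above *Plod1* in 14.

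The members differed in how much they varied. *Plod1* ranged 1.61-fold and *Plod3* 1.74-fold from the lowest to the highest of 20 libraries, whereas *Lox* ranged 15.3-fold and *Loxl2* 29.6-fold. *Loxl3*, *Loxl1*, *Plod2* and *Loxl4* lay between, with ranges of 4.07-fold, 4.76-fold, 5.98-fold and 7.25-fold.

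**Figure D1:**
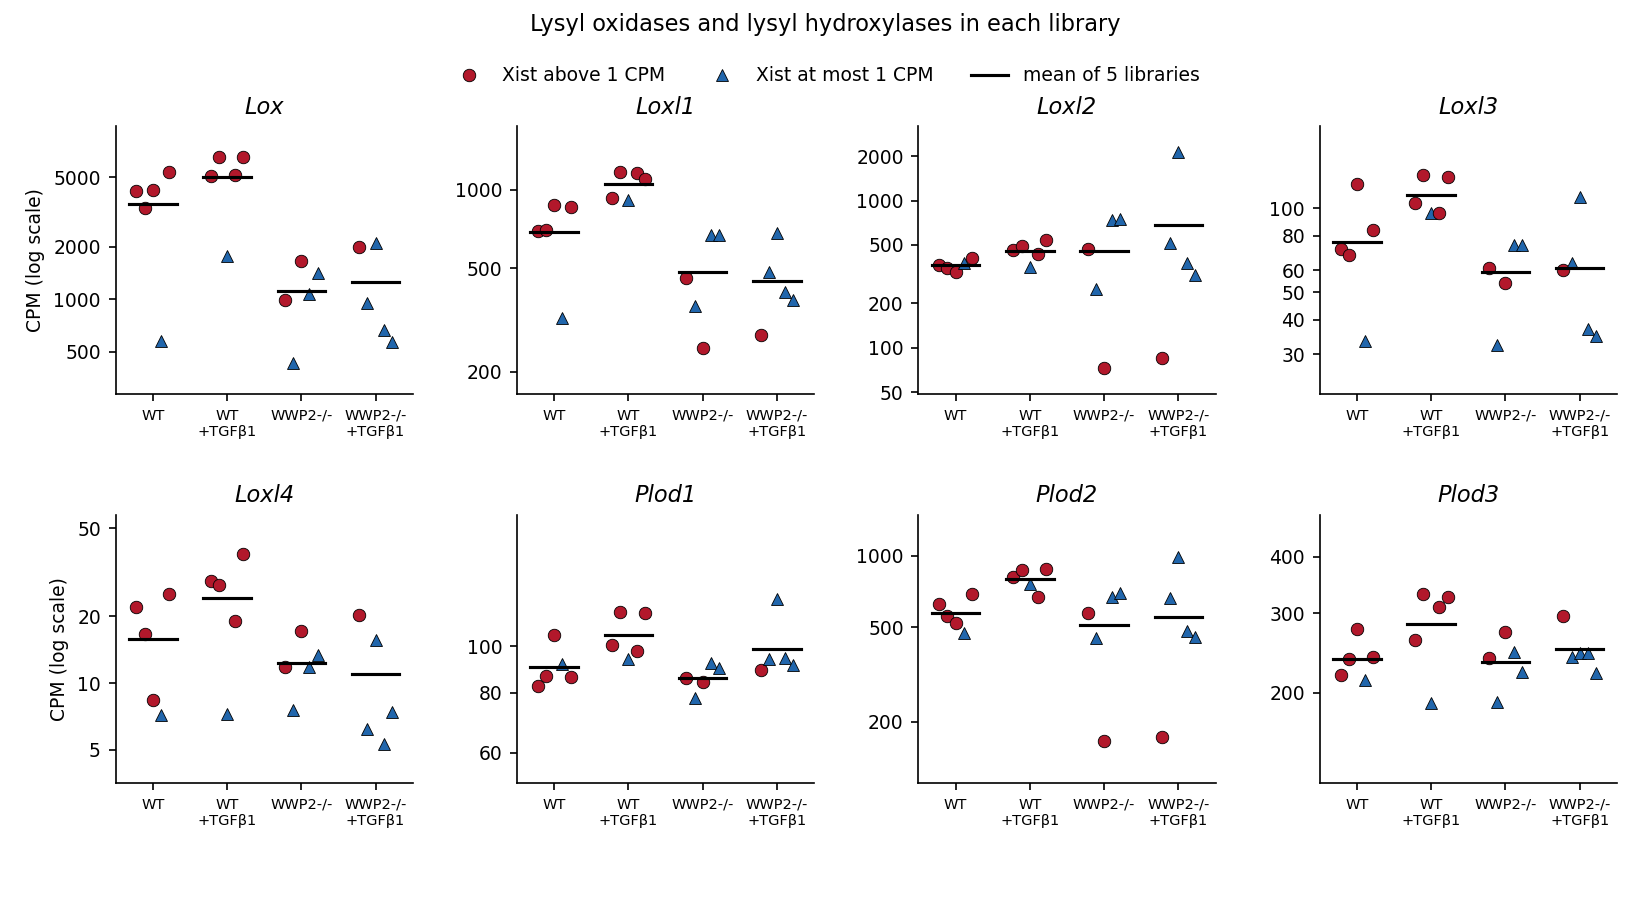
CPM of each lysyl oxidase and lysyl hydroxylase (log axis) in the 20 libraries by group. Each point is 1 library, circles have Xist above 1 CPM and triangles at most 1 CPM, and bars are means of 5 libraries. Lox and Loxl1 lie lower in WWP2-/-+TGFβ1 than in WT+TGFβ1, and Loxl2 spans 72.6 to 2145 CPM within the libraries of WWP2-/- mice.

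With TGFβ1, the question was which crosslinking genes differ between genotypes when the cells are stimulated. *Lox* and *Loxl1*, the most abundant oxidases, were lower in WWP2-/- cells, by 3.99-fold and 2.37-fold. The other 6 members did not pass the test. The 2 called members, both lower, make 2 of 8, beside 6.07% of the 20407 genes called in either direction and 3.96% called lower (edgeR's quasi-likelihood test on all 20 libraries, Benjamini-Hochberg adjustment over all genes tested, adjusted P below 0.05). Of the 8, 7 had a negative log2 fold change, and their median was -0.70, beside 0.05 over all genes tested.

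*Lox* (chromosome 18, 52516067 to 52529867, minus strand, GRCm38; ENSMUSG00000024529) encodes the founding lysyl oxidase. In WT+TGFβ1 replicates 1 to 5 it was at 5092, 6571, 1776, 5143 and 6537 CPM. In WWP2-/-+TGFβ1 it was at 1998, 951, 2104, 672 and 572 CPM. In WT+TGFβ1, 4 of 5 libraries were at 5092 CPM or more and no WWP2-/-+TGFβ1 library exceeded 2104 CPM, but WT+TGFβ1 replicate 3 was below WWP2-/-+TGFβ1 replicates 1 and 3, so the groups overlapped. The difference was -1.996 on the log2 scale (SE 0.53, 95% interval -3.11 to -0.89, adjusted P = 0.0340). The call was lost without WT+TGFβ1 replicate 1, 2, 4 or 5 (adjusted P = 0.0616, 0.0829, 0.0687 and 0.0814) and without WWP2-/-+TGFβ1 replicate 2, 4 or 5 (0.0728, 0.0826 and 0.0783), with log2 fold changes between -2.28 and -1.82 over the 10 fits that left out 1 library. It was also lost with only these 2 groups in the fit (adjusted P = 0.0565).

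*Loxl1* (chromosome 9, 58287738 to 58313186, minus strand; ENSMUSG00000032334) encodes the oxidase best known for elastic fibres. In WT+TGFβ1 it was at 931, 1172, 914, 1156 and 1104 CPM, and in WWP2-/-+TGFβ1 at 276, 482, 682, 407 and 378 CPM. Every WWP2-/-+TGFβ1 library was below every WT+TGFβ1 library, which held for 1 of the 8 members, beside 5.67% of all genes tested whose groups did not overlap, 3.08% with WWP2-/-+TGFβ1 lower. The difference was -1.25 (SE 0.30, 95% interval -1.87 to -0.63, adjusted P = 0.0207). The call was lost without WT+TGFβ1 replicate 2, 4 or 5 (adjusted P = 0.0568, 0.0521 and 0.0514) or WWP2-/-+TGFβ1 replicate 4 or 5 (0.0562 and 0.0557).

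*Loxl3* (chromosome 6, 83034173 to 83052562, plus strand; ENSMUSG00000000693) and *Loxl4* (chromosome 19, 42593982 to 42612813, minus strand; ENSMUSG00000025185) had negative values that missed the threshold. *Loxl3* was at 105, 132, 96.7, 96.1 and 129 CPM in WT+TGFβ1 and at 60.3, 63.9, 109.9, 37.1 and 34.9 CPM in WWP2-/-+TGFβ1. Of the latter, replicate 3 reached into the range of WT+TGFβ1 and the others were below it. Its log2 fold change was -0.87 (95% interval -1.55 to -0.19, adjusted P = 0.109), and it passed without that library (-1.20, adjusted P = 0.0346). *Loxl4* was at 29.1, 27.6, 7.28, 19.0 and 38.4 CPM in WT+TGFβ1 and at 20.4, 6.20, 15.7, 5.30 and 7.40 CPM in WWP2-/-+TGFβ1. The groups overlapped, since WT+TGFβ1 replicate 3 was below WWP2-/-+TGFβ1 replicates 1, 3 and 5. Its log2 fold change was -1.14 (95% interval -2.09 to -0.19, adjusted P = 0.130), and it passed without WT+TGFβ1 replicate 3 (-1.39, adjusted P = 0.0408) or WWP2-/-+TGFβ1 replicate 1 (-1.50, adjusted P = 0.0483). With *Lox* and *Loxl1*, 4 of 8 members had an unadjusted p below 0.05 in this comparison, beside 24.7% of all genes tested.

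*Loxl2* (chromosome 14, 69609068 to 69695834, plus strand; ENSMUSG00000034205), an oxidase studied in fibrosis and in basement membranes, was the only member with a positive value. It was at 463, 496, 354, 433 and 537 CPM in WT+TGFβ1 and at 85.4, 517, 2145, 377 and 313 CPM in WWP2-/-+TGFβ1. The WT+TGFβ1 libraries lay close together, and the WWP2-/-+TGFβ1 libraries extended beyond them on both sides. Its log2 fold change was 0.59 (95% interval -0.70 to 1.88, adjusted P = 0.597), and it turned to -0.52 without WWP2-/-+TGFβ1 replicate 3. The interval allows a difference in either direction.

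Among the hydroxylases, *Plod2* (chromosome 9, 92542223 to 92608428, plus strand; ENSMUSG00000032374) was at 810, 869, 759, 667 and 873 CPM in WT+TGFβ1 and at 172, 662, 989, 483 and 452 CPM in WWP2-/-+TGFβ1. Of the WWP2-/-+TGFβ1 libraries, 4 were below all WT+TGFβ1 libraries and replicate 3 was above all of them. Its log2 fold change was -0.53 (95% interval -1.28 to 0.22, adjusted P = 0.382). *Plod1* (chromosome 4, 147909753 to 147936767, minus strand; ENSMUSG00000019055) had a log2 fold change of -0.09 (95% interval -0.31 to 0.12) and *Plod3* (chromosome 5, 136987019 to 136996648, plus strand; ENSMUSG00000004846) one of -0.18 (95% interval -0.48 to 0.11). *Plod1* was at 94.1 to 117 CPM in WT+TGFβ1 and 89.1 to 125.0 CPM in WWP2-/-+TGFβ1, and *Plod3* at 189 to 330.2 and 222 to 295 CPM. For these 2 genes the intervals exclude a change of the size measured for *Lox* or *Loxl1*.

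Parts of some members' exons are shared with other genes. *Htra2* covers 11.6% of the exon bases of *Loxl3* on the opposite strand, *Znhit1* and *Mir702* together 11.9% of those of *Plod3*, *Gm38391* 6.4% of those of *Plod2*, and *Gm27177* and *Mir6950* 5.7% of those of *Loxl2*. The strand setting of the counting is not given in the sources used here, so reads from these stretches cannot be told apart, and *Lox*, *Loxl1*, *Loxl4* and *Plod1* shared at most 0.6% of their exon bases.

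**Figure D2:**
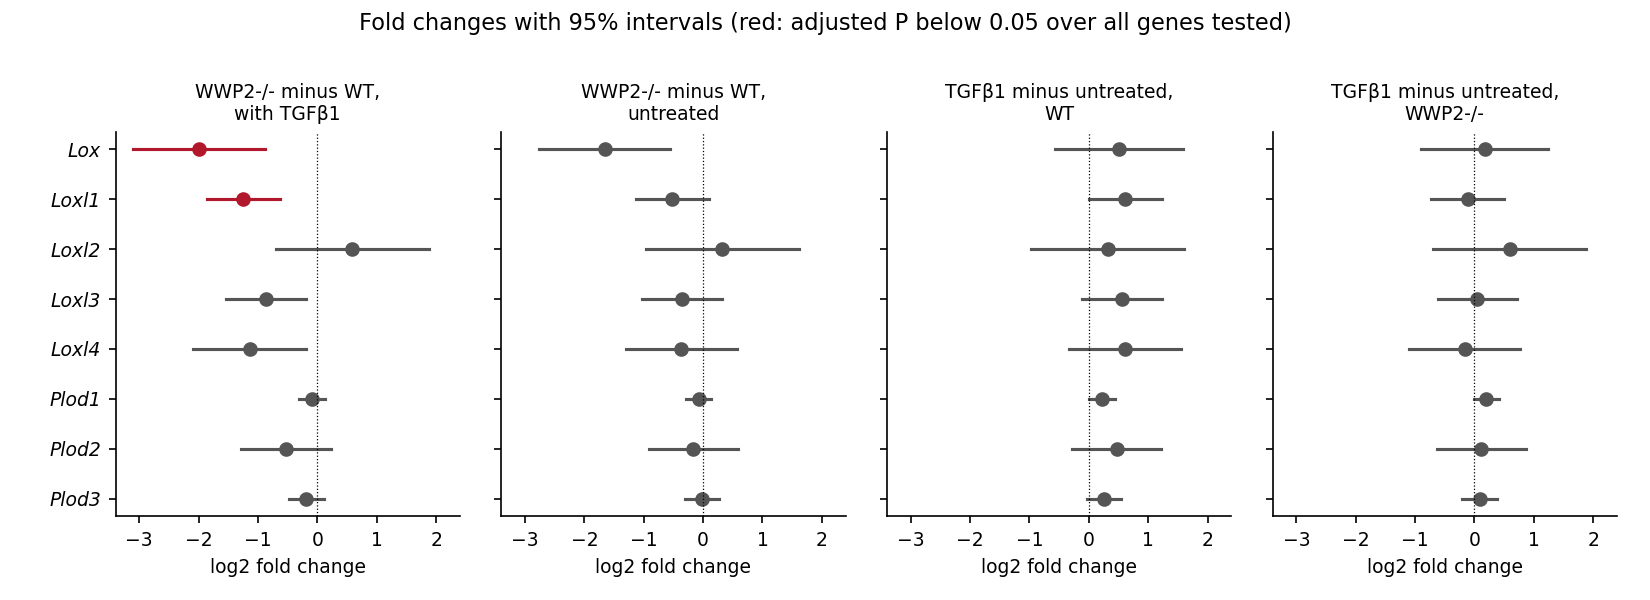
Log2 fold change of each member (points) with its 95% interval (lines) in 4 comparisons, n = 5 libraries per group, with red marking an adjusted P below 0.05 over all genes tested. Lox (-1.996) and Loxl1 (-1.25) with TGFβ1 are the calls, and the intervals of Plod1 and Plod3 are the narrowest in each panel.

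Without TGFβ1, *Lox* again had the largest difference of the 8 members between genotypes, but 0 of 8 passed, beside 0.725% of genes tested that did. *Lox* was at 4169, 3337, 4228, 578 and 5355 CPM in WT and at 988, 429.8, 1669, 1076 and 1425 CPM in WWP2-/-. Of the WT libraries, 4 were at 3337 CPM or more and no WWP2-/- library exceeded 1669 CPM, whereas WT replicate 4 lay within the WWP2-/- range. The difference was -1.66 (SE 0.52, 95% interval -2.76 to -0.56, adjusted P = 0.153 by edgeR's quasi-likelihood test). *Lox* passed with DESeq2's Wald test (-1.70, adjusted P = 0.0320) and without WT replicate 4 (-1.97, adjusted P = 0.0197), and 1 of 8 members had an unadjusted p below 0.05, beside 14.9% of all genes tested.

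*Loxl1* was at 696, 699.5, 877, 322 and 856 CPM in WT and at 459, 357, 246, 673 and 672 CPM in WWP2-/-. Again WT replicate 4 was inside the WWP2-/- range and the other WT libraries were above it. Its log2 fold change was -0.52 (95% interval -1.13 to 0.09, adjusted P = 0.413). The remaining 6 members had log2 fold changes from -0.37 for *Loxl4* to 0.32 for *Loxl2*, none of the 8 members separated the groups, beside 2.79% of genes tested that did, and the median of the 8 was -0.26 against 0.08 over all genes.

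TGFβ1 itself was tested within each genotype, and no gene in the table passed in either one (0% of genes tested, edgeR's quasi-likelihood test). In WT cells 1397 genes (6.85%) had an unadjusted p below 0.05 and DESeq2's Wald test called 27. In WWP2-/- cells these numbers were 713 genes (3.49%) and 49. The known TGFβ1 target *Ccn2* did not pass either, with log2 fold changes of 0.42 in WT and 0.17 in WWP2-/- cells.

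Within WT cells, all 8 members had a positive log2 fold change with TGFβ1, with a median of 0.49 beside 0.02 over all genes, and none passed. *Loxl1* was higher in every WT+TGFβ1 library (914 to 1172 CPM) than in any WT library (322 to 877 CPM), with a log2 fold change of 0.61 (95% interval -0.0012 to 1.23, adjusted P = 0.730). It was 1 of 8 members without overlap, beside 1.35% of genes tested, 0.588% with WT+TGFβ1 higher. *Plod1* had 0.22 (95% interval 0.0022 to 0.43, adjusted P = 0.725), and was the 1 member with an unadjusted p below 0.05. *Lox* had 0.51 (95% interval -0.57 to 1.58) and *Plod2* 0.47 (95% interval -0.28 to 1.22).

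In WWP2-/- cells the values were smaller for most members, with 6 positive and 2 negative and a median of 0.10. *Loxl1* had -0.11 (95% interval -0.73 to 0.50), *Lox* 0.17 (95% interval -0.90 to 1.24) and *Plod2* 0.11 (95% interval -0.64 to 0.86). No member had an unadjusted p below 0.05 or separated the groups, beside 0.377% of all genes tested that separated them. Whether the response to TGFβ1 differed between genotypes was tested as an interaction, and 0 of the 8 members and 0% of all genes passed. Of all genes, 1424 (6.98%) had an unadjusted p below 0.05 for the interaction, and DESeq2's Wald test called 10. *Loxl1* had an interaction of -0.73 (95% interval -1.59 to 0.14, adjusted P = 0.784) and *Lox* one of -0.34 (95% interval -1.85 to 1.18). The 2 treatment comparisons use other libraries in each genotype, but both share their libraries with the comparisons of genotypes above.

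Among libraries of WT mice, *Lox* moved together with the makeup of the libraries, which was unevenly spread over genotypes. The fibroblast marker *Pdgfra* was at 14.4 to 179 CPM in the 11 libraries with *Xist* and at 0.543 to 1.87 CPM in the 9 without. *Dcn*, the fibroblast proteoglycan decorin, was at 201 to 1452 CPM in the former and 6.69 to 52.1 CPM in the latter. Other markers of the fibroblast list did not split in this way. *Col1a1* was at 703 to 10840 CPM with *Xist* and 854 to 5302 CPM without it. *Pdgfrb* was at 230 to 742 CPM with *Xist* and 104 to 540 CPM without it. Among libraries of WWP2-/- mice, the median of *Lox* was 1669 CPM in the 3 with *Xist* and 951 CPM in the 7 without. The highest of these libraries in *Lox*, WWP2-/-+TGFβ1 replicate 3 at 2104 CPM, had *Pdgfra* at 0.948 CPM. Whether makeup accounts for the genotype difference was not tested. The summed level of 10 fibroblast markers was 4270 to 17690 CPM in WT, 10570 to 25590 in WT+TGFβ1, 4208 to 9621 in WWP2-/- and 4751 to 12300 in WWP2-/-+TGFβ1, with all 10 above 0 in each group. WWP2-/- replicate 3 and WWP2-/-+TGFβ1 replicate 1, both with *Xist*, had sums of 4208 and 5140 CPM.

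Among libraries with *Xist*, *Lox* was at 3337 to 6571 CPM in the 8 from WT mice and at 988 to 1998 CPM in the 3 from WWP2-/- mice, without overlap. Among those without *Xist*, it was at 578 and 1776 CPM in the 2 from WT mice and at 429.8 to 2104 CPM in the 7 from WWP2-/- mice, which span the WT values. The ratio of genotype means with TGFβ1 was -1.55 on the log2 scale among libraries with *Xist* (4 WT, 1 WWP2-/-) and -0.73 among those without (1 WT, 4 WWP2-/-). Without TGFβ1 it was -1.68 (4 WT, 2 WWP2-/-) and 0.76 (1 WT, 3 WWP2-/-). The 1 untreated WT library without *Xist*, replicate 4, thus had less *Lox* than the mean of its WWP2-/- counterparts. Within these strata an arm often held 1 library, so they were not tested.

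After adjustment for the log2 CPM of *Xist* in each library, the genotype difference with TGFβ1 was -1.06 for *Lox* (adjusted P = 0.233) and -1.40 for *Loxl1* (adjusted P = 0.0503), and no member passed. *Xist* was above 1 CPM in 4 WT+TGFβ1 libraries and 1 WWP2-/-+TGFβ1 library. Its part and that of genotype can thus hardly be told apart in this fit. The 2 shifts were not compared by a test. *Loxl1* was at 696 to 1172 CPM in WT libraries with *Xist* and 246 to 459 CPM in WWP2-/- libraries with it. Without *Xist* it was at 322 and 914 CPM in the 2 WT libraries and 357 to 682 CPM in the 7 WWP2-/- libraries. For *Loxl1* the ratios of genotype means were -1.98 with *Xist* and -0.91 without it under TGFβ1, and -1.15 and 0.82 untreated, so that the untreated direction turned among libraries without *Xist*, as for *Lox*. When the 5 libraries with both *Xist* and Y-linked transcripts were left out, the values were -1.99 for *Lox* (adjusted P = 0.156) and -1.29 for *Loxl1* (adjusted P = 0.125), in a fit that called 2 genes in all. Of untreated WT libraries, that fit kept 1 with *Xist* and 1 without.

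**Figure D3:**
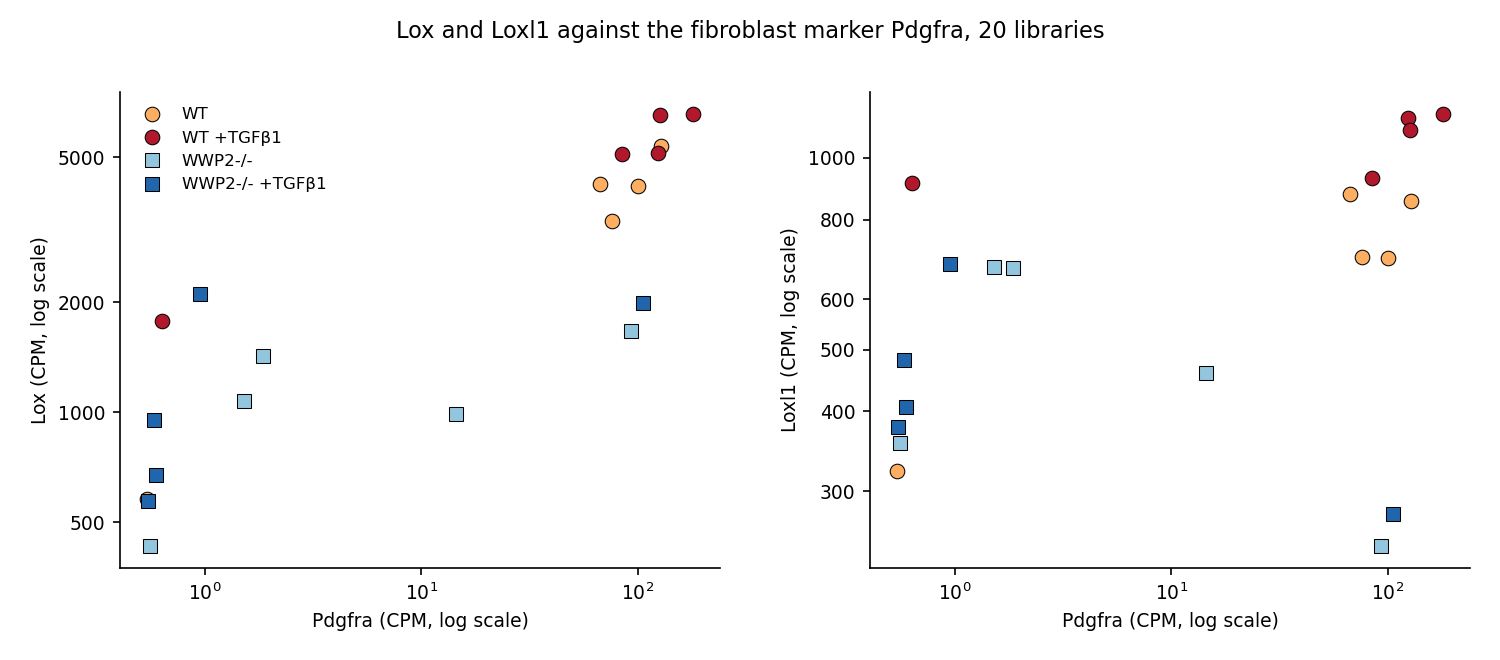
Lox (left) and Loxl1 (right) against the fibroblast marker Pdgfra in the 20 libraries, all axes in CPM on a log scale, with each point 1 library. WT libraries with Pdgfra of at least 66.5 CPM have Lox of at least 3337 CPM. The 2 WT libraries below 1 CPM of Pdgfra have 578 and 1776 CPM, among the WWP2-/- values. WWP2-/- replicate 3 and WWP2-/-+TGFβ1 replicate 1, with Pdgfra of 93.4 and 105 CPM, have Lox of 1669 and 1998 CPM.

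*Lox* was lowest in the libraries where a marker of other cells was highest. *Ptprc*, the leukocyte marker CD45, was at 20.8 to 34.7 CPM in WT replicate 4, WWP2-/- replicate 2 and WWP2-/-+TGFβ1 replicates 4 and 5, and at most 13.3 CPM in the other 16 libraries. Those 4 libraries had the lowest *Lox* of all, at 429.8 to 672 CPM, against at least 951 CPM elsewhere. They also had the lowest *Loxl3*, at 32.4 to 37.1 CPM against at least 54.1 CPM. Next in *Ptprc* were WT replicate 1, WWP2-/-+TGFβ1 replicate 2 and WT replicate 2, at 13.3, 12.3 and 11.6 CPM. Their *Lox* was at 4169, 951 and 3337 CPM, so the relation did not hold throughout. The summed level of 10 macrophage markers was 154 to 4006 CPM in WT, 62.9 to 443 in WT+TGFβ1, 75.8 to 1772 in WWP2-/- and 71.7 to 3543 in WWP2-/-+TGFβ1, with all 10 above 0 in each group.

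Without those 4 libraries, *Lox* was lower in WWP2-/- cells both with TGFβ1 (-1.54, adjusted P = 0.0432) and without it (-1.75, adjusted P = 0.0213). *Loxl1* with TGFβ1 was at -1.10 (adjusted P = 0.0659). Since these libraries were also the 4 lowest in *Lox*, leaving them out selected on the gene tested. Without WT replicate 4 alone, the untreated value of *Lox* was -1.97 (adjusted P = 0.0197, edgeR's quasi-likelihood test). The summed level of 10 tubular epithelial markers was 33.4 to 421 CPM in WT, 36.8 to 200.5 in WT+TGFβ1, 16.2 to 708.5 in WWP2-/- and 15.6 to 548 in WWP2-/-+TGFβ1, and that of 8 endothelial markers did not exceed 191.5 CPM. The 4 libraries highest in *Ptprc* were also the 4 highest in summed tubular markers. They were at 421 to 708.5 CPM, against at most 337 CPM in the others. Leaving them out thus removed the highest libraries of both lists at once. Among them, WWP2-/- replicate 2 and WWP2-/-+TGFβ1 replicates 4 and 5 were also high in endothelial markers, at 168, 170.5 and 157.5 CPM. The highest endothelial sum, 191.5 CPM, was in WT+TGFβ1 replicate 3, which was kept, and WT replicate 4 was at 68.8 CPM. The part of any list in the differences was not tested separately.

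The 2 libraries low in *Acta2* had a crosslinking profile of their own. In WWP2-/- replicate 3 and WWP2-/-+TGFβ1 replicate 1, *Loxl2* was at 72.6 and 85.4 CPM, against at least 251.5 CPM in the other 18 libraries. *Plod2* was at 165 and 172 CPM there, against at least 451 CPM, and *Loxl1* at 246 and 276 CPM, against at least 322 CPM. *Plod3*, at 273 and 295 CPM, *Plod1*, at 84.2 and 89.1 CPM, and *Lox*, at 1669 and 1998 CPM, stayed within the range of the others. The low members were thus *Loxl1*, *Loxl2* and *Plod2*. The summed level of 8 contractile markers, *Acta2* among them, was 1369 to 1670 CPM in WT, 1971 to 2493 in WT+TGFβ1, 82.2 to 4114 in WWP2-/- and 100.6 to 4424 in WWP2-/-+TGFβ1. These 2 libraries were each other's nearest library of the other treatment (Pearson's r = 0.992 across genes), and both held *Xist* and no Y-linked transcripts. Without them, with TGFβ1, *Lox* was at -2.21 (adjusted P = 0.0202), *Loxl1* at -1.12 (adjusted P = 0.0165) and *Loxl4* at -1.48 (adjusted P = 0.0409), so 3 of 8 members passed. Calls over all genes tested also rose in that fit, to 3480 from 1238 with all 20 libraries.

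The balance within each family, as shares of summed CPM per kilobase, followed the same libraries. *Lox* made up 70.2% to 75.6% of lysyl oxidase transcripts in 8 libraries of WT mice, treated or not, but 40.6% in WT replicate 4 and 50.4% in WT+TGFβ1 replicate 3. In libraries of WWP2-/- mice it made up 35.4% to 46.0%, except 76.9% and 77.8% in the 2 libraries low in *Acta2*. *Loxl2* took 6.10% ± 1.63 (SD, n = 5) in WT+TGFβ1 and 20.2% ± 12.1 in WWP2-/-+TGFβ1, where it ranged from 2.97% to 37.2%.

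Among hydroxylases, *Plod2* made up 56.2% to 72.0% in the 18 libraries with high *Acta2* and 30.3% and 29.6% in the 2 without it, where *Plod3* was the largest at 55.9% and 56.7%. The summed level of the 5 lysyl oxidases was 1500 ± 459 CPM per kilobase in WT+TGFβ1 and 548 ± 315 in WWP2-/-+TGFβ1. That of the 3 hydroxylases was 329 ± 36.5 and 251 ± 81.3 CPM per kilobase. These shares are a description and were not tested.

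**Figure D4:**
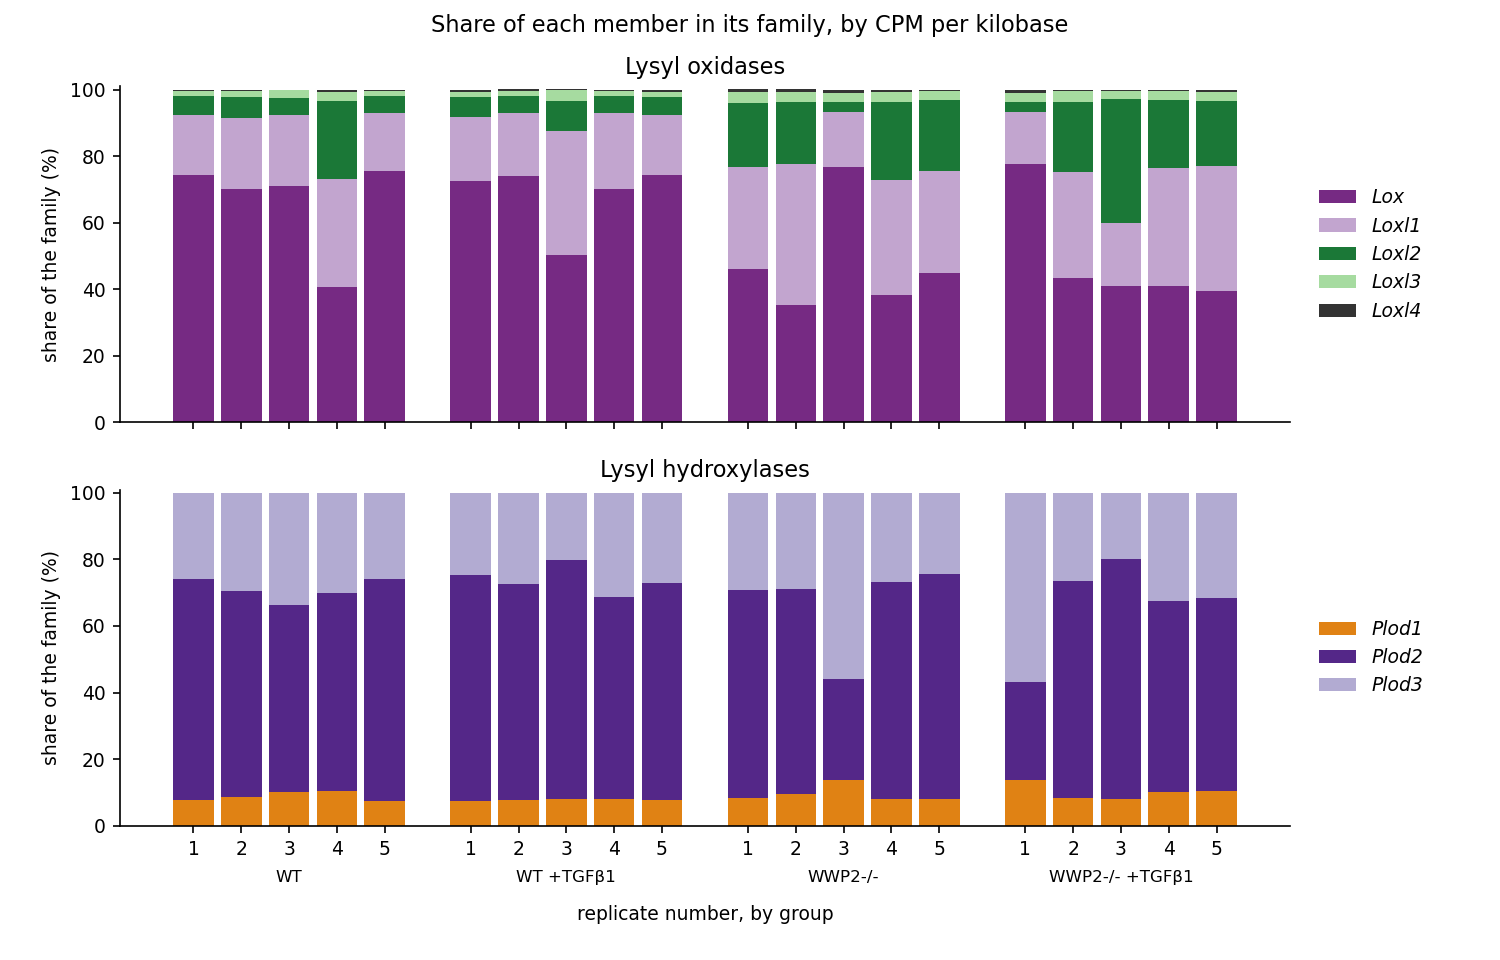
Share (%) of each lysyl oxidase (top) and lysyl hydroxylase (bottom) in its family's summed CPM per kilobase, with 1 bar per library ordered by group and replicate number. Lox takes at least 70.2% in 8 of 10 WT libraries, and in the 2 libraries low in Acta2 (WWP2-/- 3 and WWP2-/-+TGFβ1 1) Plod3 exceeds Plod2.

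Across the 20 libraries the members fell into sets that moved together, given as Pearson's r of log2 CPM over points that share genotype, treatment and the makeup above. *Lox* went with *Loxl3* (r = 0.859), *Loxl4* (r = 0.819) and *Loxl1* (r = 0.762), and hardly with *Loxl2* (r = 0.102). *Loxl2* went with *Plod2* (r = 0.889), as did *Loxl1* (r = 0.803). *Plod3* went with neither *Loxl2* (r = -0.0904) nor *Plod2* (r = -0.0434).

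Of 10950 genes with a mean of at least 5 CPM, those most like *Lox* were *Pcdhgc3* (r = 0.981), *Smoc2* (r = 0.979) and *Zfp521* (r = 0.979). Those most like *Loxl1* were *Marveld1* (r = 0.973), *Txndc5* (r = 0.970) and *Col1a1* (r = 0.963), the last being the main chain of type I collagen, a substrate of the enzyme.

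Genes that work with the 2 families were counted by role in the comparison with TGFβ1. Of 14 partners of the lysyl hydroxylases and other collagen-modifying proteins, 4 were lower and 0 higher in WWP2-/- cells, with a median log2 fold change of -0.48, beside 3.96% called lower and a median of 0.05 over all genes tested. The prolyl 4-hydroxylase subunits *P4ha3* (8.76 ± 2.90 against 40.9 ± 7.07 CPM, -2.22, adjusted P = 0.0149) and *P4ha2* (84.7 ± 14.6 against 167 ± 41.9 CPM, -0.98, adjusted P = 0.0121) fell. So did the prolyl 3-hydroxylase *P3h3* (-1.03, adjusted P = 0.0251) and *Serpinh1*, the collagen chaperone HSP47 (-0.98, adjusted P = 0.02003). *P3h3* also works in complexes with lysyl hydroxylase in the endoplasmic reticulum.

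Of 13 activators, binding partners and copper suppliers of the lysyl oxidases, 3 were lower and 0 higher, with a median of -0.82, against the same 3.96% and 0.05. They were *Fbln5*, which places LOXL1 on elastic fibres (64.3 ± 44.3 against 741 ± 455 CPM, -3.53, adjusted P = 0.0121), *Fmod*, which binds LOX on collagen (-3.31, adjusted P = 0.0341), and *Postn*, a matricellular scaffold for the protease that activates LOX (-2.44, adjusted P = 0.0407). That protease, *Bmp1*, was at 907 ± 330.4 against 613 ± 96.7 CPM (0.56, adjusted P = 0.206). The copper transporters *Atp7a* (0.34, adjusted P = 0.639) and *Slc31a1* (0.27, adjusted P = 0.157) did not pass.

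Of 8 substrate genes, 3 were lower, namely *Col1a2* (1296 ± 969 against 7999 ± 2807 CPM, -2.63, adjusted P = 0.0142), *Col5a2* (-1.68, adjusted P = 0.0206) and *Col1a1* (-1.98, adjusted P = 0.0492), and the median was -1.12, again beside 3.96% and 0.05 over all genes. *Tgm2*, which crosslinks by another reaction, was at -0.37 (adjusted P = 0.637). Without TGFβ1, *Col5a2* was the 1 gene of these 36 that passed (-1.74, adjusted P = 0.0494), beside 0.725% of genes tested, and in the treatment comparisons and the interaction none did.

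With TGFβ1, the 10 of these 36 genes called in WWP2-/- cells became 2 (*P4ha2* and *Fmod*) with *Xist* as a covariate and 0 without the libraries with both *Xist* and Y-linked transcripts. They became 5 without the libraries highest in *Ptprc* and 14 without those low in *Acta2*, where *Bmp1* and *Fn1* passed as higher. Over all genes tested, calls went from 1238 to 544 with *Xist* as a covariate. They went to 2 without the libraries with both kinds of transcript and to 3480 without those low in *Acta2*. In these fits the listed genes thus moved with all genes. Leaving out single libraries gave from 4, without WT+TGFβ1 replicate 2 or WWP2-/-+TGFβ1 replicate 4, to 15, without WT+TGFβ1 replicate 3. *P4ha2* passed in 20 of 21 fits, *P4ha3*, *Fbln5* and *Col1a2* each in 19, and *Col1a1* in 6. All 10 genes stayed negative in every fit that held them (*Fmod* was not in that with the stricter filter). Untreated, *Col5a2* passed in 6 of 21 fits, and without WT replicate 4 the count of the 36 genes rose from 1 to 7.

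How firmly *Lox* and *Loxl1* were called with TGFβ1 depended on the fit. Over the test as reported and the other 20 fits, the log2 fold change was negative in 21 of 21 for both genes. *Lox* lay between -2.28 and -1.06 and passed in 10 of 21, and *Loxl1* lay between -1.47 and -1.10 and passed in 13 of 21. Their adjusted P ran from 0.00293 to 0.233 and from 0.00223 to 0.125.

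**Figure D5:**
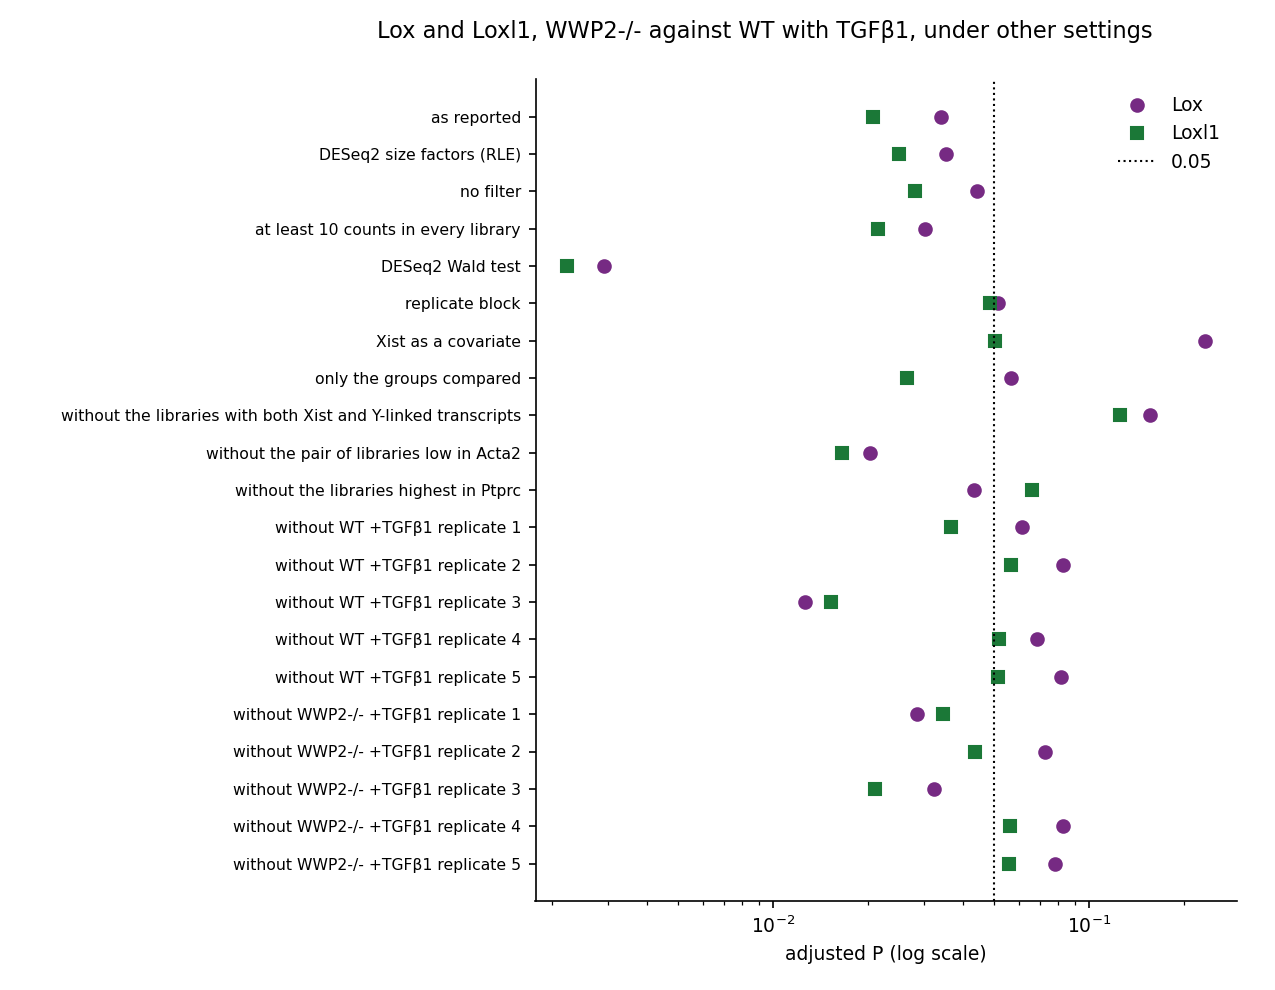
Adjusted P (log axis) of Lox and Loxl1 for WWP2-/- against WT with TGFβ1 in 21 fits, 1 per line, with the dotted line at 0.05. Lox passes in 10 fits and Loxl1 in 13, with adjusted P from 0.00293 to 0.233 and from 0.00223 to 0.125.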

How the data were processed

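Libraries were made from poly-A RNA, and the authors mapped read pairs with STAR to GRCm38 (mm10) before exon-level counting in featureCounts. They deposited whole-number counts per Ensembl gene without normalization, 1 column for each of the 20 libraries, and totals of 47520759 to 73063697 counts per library leave little counting error in the members. Groups and replicate numbers come from the labels. Names, positions and lengths come from GENCODE M21 on GRCm38, which names 51633 of 51826 genes.

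The 20407 genes reaching 5 counts in 5 or more libraries were fitted with edgeR 4.0.16 in R 4.3.3 (TMM, glmQLFit, glmQLFTest), with 4 groups, all 20 libraries and no block. The filter is that of the paper, which compared the genotypes by DESeq2's Wald test, here an alternative. P-values were adjusted over all genes tested by the Benjamini-Hochberg method, at a threshold of 0.05. Standard errors are the log2 fold change divided by the square root of F. Alternatives were DESeq2's size factors and Wald test (DESeq2 1.42.0), no filter, a minimum of 10 counts per library throughout, a block for the replicate number, a covariate for the log2 CPM of *Xist*, only the groups compared, no libraries with both *Xist* and Y-linked transcripts, and each library left out. Levels were also computed from library totals, which moved no member's group mean by more than its SD, and from exon union lengths. Leaving out the 2 libraries lowest in *Acta2*, or the 4 highest in *Ptprc*, was chosen after seeing the data, as was repeating the alternatives for the lists of interacting genes.

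The members, the lists of interacting genes and the cell type markers (fibroblast, contractile, macrophage, tubular epithelial, endothelial) were chosen with earlier results of these data known. Named were the 8 members, *Wwp2*, the listed genes that passed or had the lowest p, and the 3 genes most like each called member. *Bmp1*, *Atp7a*, *Slc31a1*, *Tgm2*, *Ccn2* and marker genes were named for their roles.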

Additional observations from a re-analysis of the deposited data

Results flagged for a closer look

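Within groups of 5 libraries, the gap between an extreme library and its nearest neighbour was set against the whole range, with 0.71 as the critical share. This flagged 2 of 36 combinations of gene and group (the 8 members and *Wwp2* in 4 groups), and chance flags about 1 in 20. Both come from WWP2-/-+TGFβ1 replicate 3, which was the highest of its group for *Loxl2*, at 2145 CPM (gap 0.791 of the range), and for *Plod1*, at 125.0 CPM (gap 0.849).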

How the results depend on the processing

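Of the members called with TGFβ1, 2 remained with DESeq2's size factors, its Wald test, no filter and the stricter filter. There was 1 in the fit of only the groups compared (*Loxl1*) and without the libraries highest in *Ptprc* (*Lox*), 0 with *Xist* as a covariate and 0 without the libraries with both *Xist* and Y-linked transcripts. Leaving out single libraries gave 0 to 3. Untreated, 1 member (*Lox*) was called by DESeq2's Wald test and 1 without the libraries highest in *Ptprc*, and 0 to 1 when single libraries were left out.

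The replicate numbers gave no clear pairing of treatments, since 2 of 20 libraries were nearest to their own number in the other treatment of their genotype. Correlations of deviations from group means ran from -0.522 to 0.443 over the 4 pairs of groups. They were above 0.1 in 4 of 5 pairs of WT with WWP2-/- and 1 of 5 of these genotypes with TGFβ1. For TGFβ1 against untreated it was 2 of 5 in WT and 3 of 5 in WWP2-/- cells. Nearest libraries were not sought across genotypes, so pairing of WT with WWP2-/- was not excluded. With the replicate block, 1 member passed with TGFβ1 (*Loxl1* -1.26, adjusted P = 0.0486, and *Lox* -2.16, adjusted P = 0.0514), *Loxl3* turned to -0.046 for TGFβ1 in WWP2-/- cells and *Loxl2* to -0.014 for the interaction, and the count over all genes with TGFβ1 was 670.

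With *Xist* as a covariate, signs turned for *Loxl2* (-0.62) and *Plod3* (0.050) with TGFβ1, *Loxl2* (-0.45), *Loxl4* (0.22) and *Plod3* (0.13) untreated, *Plod2* (-0.056) for TGFβ1 in WWP2-/- cells and *Loxl2* (-0.16) for the interaction. The interaction of *Plod1* turned to 0.016 with DESeq2's size factors or Wald test and 0.018 with the stricter filter, to 0.087 without the libraries with both kinds of transcript, 0.028 without those low in *Acta2* and 0.056 without those highest in *Ptprc*. Without the libraries with both kinds, *Loxl4* untreated turned to 0.68. *Plod2* untreated turned to 0.038 without those low in *Acta2*, and without those highest in *Ptprc*, *Loxl4* turned to 0.099 for TGFβ1 in WWP2-/- cells and *Lox* to 0.22 for the interaction. None of these turned values was called, and the causes were not tested.

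Leaving out single libraries turned signs for *Plod2* (-0.34 to 0.038) and *Plod3* (-0.10 to 0.014) untreated, *Loxl2* with TGFβ1 (-0.52 to 0.87), *Loxl2* (-0.82 to 0.57) and *Plod1* (-0.11 to 0.035) for the interaction, and for TGFβ1 in WWP2-/- cells *Lox* (-0.081 to 0.38), *Loxl1* (-0.32 to 0.058), *Loxl2* (-0.50 to 0.88), *Loxl3* (-0.26 to 0.21), *Loxl4* (-0.50 to 0.028) and *Plod2* (-0.21 to 0.34). Genes called with TGFβ1 numbered 1238 as reported, 2672 by DESeq2's Wald test, 790 without a filter, 544 with *Xist*, 534 in the fit of only the groups compared, 2 without the libraries with both kinds and 3480 without those low in *Acta2*. Untreated they numbered 148, and 743, 113, 84, 1, 1 and 271. The untreated count was 1 with the replicate block and 631 without the libraries highest in *Ptprc*. Leaving out single libraries gave 453 to 2730 genes with TGFβ1 and 1 to 743 untreated, and 63 for TGFβ1 in WWP2-/- cells without WWP2-/- replicate 3, against 0. No fit at reduced depth was made, and the lowest count of a member was 295.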
